A study of Mus musculus with 27 samples.

Results

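The Iroquois homeobox family, Irx1 to Irx6, was followed through the development of the mouse retina. Members were taken by gene name, and all 6 of the 38168 features in the deposited expression table that carry these names were used, 1 feature per gene. Whole retinas of wild-type C57BL/6J mice were profiled by total RNA sequencing at 7 ages: embryonic days E14 and E17 with 3 libraries each, and postnatal days P1 with 4, P6 with 3, P15 with 4, P28 with 4 and P60 with 6 libraries, 27 in all. No allele, agent or treatment separated the groups, so that age was the factor compared. Retinas were pooled at most ages, and at P60 some libraries were pools and others single animals. Retinas of mixed sex were used at the younger ages and retinas of males at the older ones, so that sex cannot be told apart from age there. Each library is the average of all cell types of the retina, and in such bulk samples fewer cells of a type and less RNA per cell cannot be told apart.

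Iroquois genes encode transcription factors of the TALE class, whose homeodomain carries an extra loop and binds DNA, often together with partner proteins. In mammals they lie in a pair of clusters that arose by duplication, Irx1, Irx2 and Irx4 in the first and Irx3, Irx5 and Irx6 in the other, and members at matching places in the clusters (Irx1 with Irx3, Irx2 with Irx5, Irx4 with Irx6) are the closest relatives. In the retina Irx2 and Irx4 are known from ganglion cells, the output neurons, whereas Irx5 and Irx6 act in subsets of OFF cone bipolar cells, interneurons that carry signals from photoreceptors to ganglion cells.

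In the GRCm38 annotation (GENCODE M21) the Irx1-2-4 cluster spans 1.312 Mb of chromosome 13, with Irx1 at chr13:71957921-71963723 on the minus strand, Irx2 at chr13:72628820-72634198 on the plus strand and Irx4 at chr13:73260479-73269608 on the plus strand. The Irx3-5-6 cluster spans 0.882 Mb of chromosome 8, with Irx3 at chr8:91798525-91802067 on the minus strand, Irx5 at chr8:92357625-92376286 on the plus strand and Irx6 at chr8:92674288-92680956 on the plus strand. Gaps between members of a cluster are wide, 665.1 and 626.3 kb in the first and of 555.6 and 298 kb in the second.

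How alike the 6 genes are bears on whether short reads can be assigned to the right member, so the most alike coding stretch is shown for each. It is 180 bases long, lies in the homeobox and falls within 1 exon in every gene: exon 2 of Irx1, Irx2, Irx3 and Irx5, exon 5 of Irx4 and exon 4 of Irx6. The stretches are chr13:71959989-71960168 for Irx1, chr13:72630676-72630855 for Irx2, chr13:73267535-73267714 for Irx4, chr8:91800493-91800672 for Irx3, chr8:92359639-92359818 for Irx5 and chr8:92677248-92677427 for Irx6. They are written 5′ to 3′ on the coding strand, and capitals mark bases that differ from the commonest base of the 6 genes at that place. Where 2 bases were equally common, the base first in the alphabet was taken as the common one, so some capitals are as common as the base they are set against.
Irx1: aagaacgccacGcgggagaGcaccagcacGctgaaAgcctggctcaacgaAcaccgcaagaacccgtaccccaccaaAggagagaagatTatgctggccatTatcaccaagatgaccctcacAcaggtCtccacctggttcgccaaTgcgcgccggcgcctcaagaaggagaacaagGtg
Irx2: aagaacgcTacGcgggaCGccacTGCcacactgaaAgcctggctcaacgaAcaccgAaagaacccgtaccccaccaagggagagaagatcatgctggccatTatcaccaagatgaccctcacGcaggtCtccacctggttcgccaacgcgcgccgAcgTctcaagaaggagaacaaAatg
Irx4: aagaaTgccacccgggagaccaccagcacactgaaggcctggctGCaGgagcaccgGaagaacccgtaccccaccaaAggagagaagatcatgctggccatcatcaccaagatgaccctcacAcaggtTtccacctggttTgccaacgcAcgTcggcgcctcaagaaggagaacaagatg
Irx3: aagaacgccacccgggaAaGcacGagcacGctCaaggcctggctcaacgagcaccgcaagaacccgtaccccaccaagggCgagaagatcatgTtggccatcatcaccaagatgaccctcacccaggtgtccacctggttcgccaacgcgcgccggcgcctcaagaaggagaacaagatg
Irx5: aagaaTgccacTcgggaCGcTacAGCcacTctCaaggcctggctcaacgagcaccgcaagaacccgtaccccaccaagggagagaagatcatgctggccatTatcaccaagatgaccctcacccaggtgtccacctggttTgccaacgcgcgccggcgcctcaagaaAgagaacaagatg
Irx6: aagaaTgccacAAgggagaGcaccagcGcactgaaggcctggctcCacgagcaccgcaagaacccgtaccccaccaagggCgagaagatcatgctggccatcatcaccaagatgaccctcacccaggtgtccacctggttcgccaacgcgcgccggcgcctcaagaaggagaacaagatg
At 144 of the 180 places all 6 genes hold the same base. With ties settled in this way, Irx3 and Irx6 have 7 capitals each and Irx2 has 16. Over the 15 pairs of genes identity ran from 86.7% for Irx2 and Irx4 to 94.4% for Irx3 and Irx6. Pairs within a cluster had a median identity of 90.6% and pairs across the clusters 90%, so the 2 kinds of pair overlapped.

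Reads were 50 bases long, and windows of this length were compared between the transcripts of the 6 genes. Irx1 and Irx4 shared no window with another member. Irx3 shared 40 of 2762 windows with other members (39 of them with Irx6), Irx6 shared 39 of 3368, Irx5 shared 17 of 3078 and Irx2 shared 16 of 3324. Reads from these few windows could be assigned to either gene or be left out. On the opposite strand, 75 windows of Irx3 were also found in the antisense gene Irx3os and 80 of Irx6 in the predicted gene Gm45505. Whether strand was used in counting is not given in the sources used here, so reads of such partners cannot be told apart there.

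Values are read counts scaled to the size of each library (cpm, the usual unit of normalized counts). The libraries held 7076646 to 11330762 reads on listed features, so that 1 cpm stands for about 7 to 11 reads, and a count of 0 allows up to 3 reads. Markers of ganglion cells, bipolar cells and photoreceptors, which mark the tissue as retina, were present. Markers of cells outside the retina were lower, but not at 0. Summed pigment epithelium markers ran from 2.65 to 9.69 cpm up to P1 and from 10.9 to 49.4 cpm from P6 onward, with Rpe65 and Ttr higher in the mature retina and Mlana at no more than 3 reads in any library. Lens markers summed to 2.63 to 13.3 cpm and blood markers to 10.7 to 50.3 cpm. Corneal and surface markers summed to 37.6 cpm in P28 replicate 1 against 0.406 to 2.64 cpm in the other P28 libraries. At P60, replicates 1 and 2 stood apart from the other 4 libraries over all features: chi-square per degree of freedom was 3.13 between them, 7.63 to 19.3 against the others and 4.37 to 8.54 among the others. The part of these differences in the Irx levels was not tested. Counts of members called that involve P60, and the mature share of Irx3, Irx5 and Irx6, are given without both libraries as well. P60 means, levels per kilobase, shares and marker sums are given with all libraries of the age.

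The broadest comparison asks how the family changed from the embryonic retina (E14 and E17, 6 libraries) to the mature one (P15, P28 and P60, 14 libraries). Irx1, Irx2, Irx3, Irx4 and Irx5 fell and Irx6 did not pass the test. Of all 31760 features tested, 40.4% were lower in the mature retina by limma with Benjamini-Hochberg adjustment, and 23.0% had all mature libraries below all embryonic ones, as these 5 members did. The mean of the 6 embryonic libraries exceeded that of the 14 mature libraries 16.0-fold for Irx2, 8.24-fold for Irx3, 6.56-fold for Irx5, 6.30-fold for Irx4 and 6.11-fold for Irx1. In limma, a stage was instead the mean of its age means. For Irx6 both means were 16.7 cpm and the libraries of the 2 stages overlapped.

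**Figure D1:**
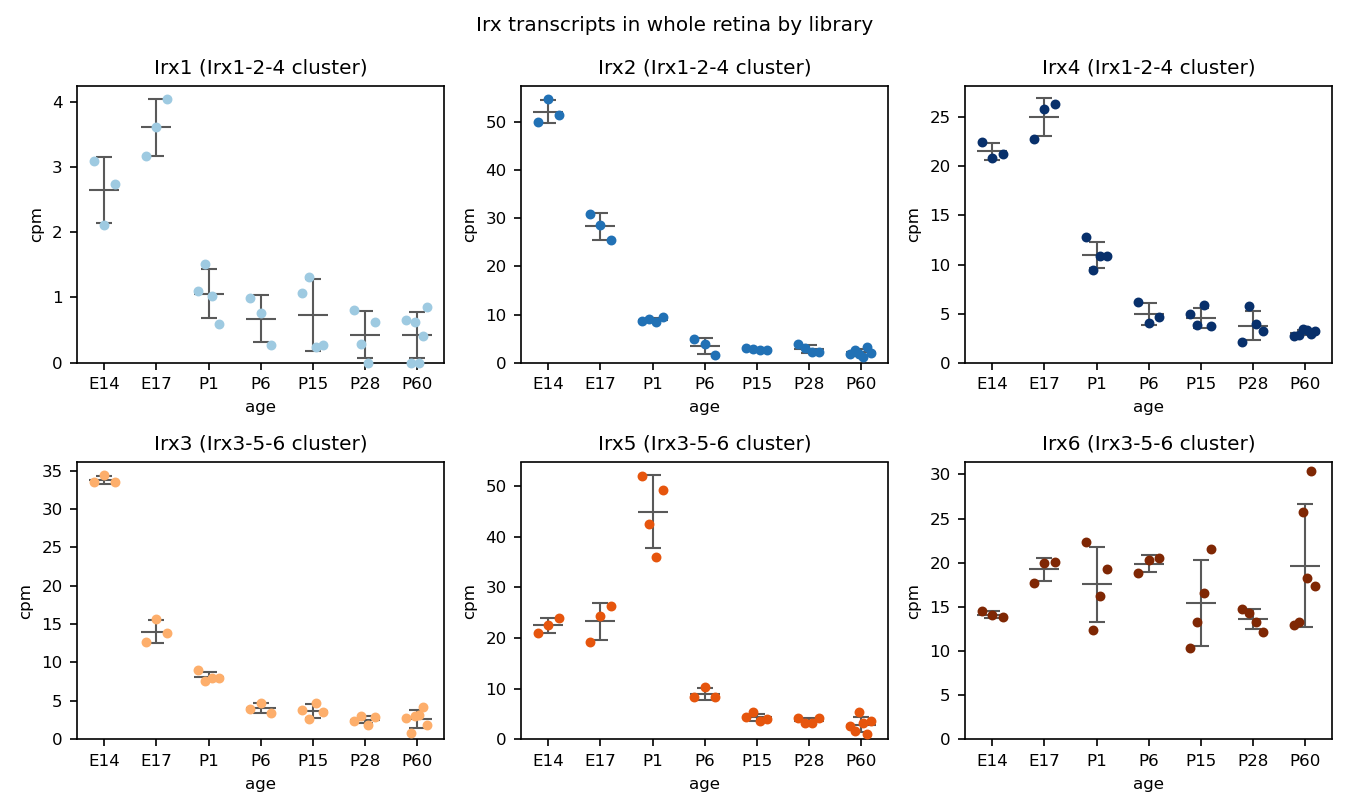
Level of each Irx gene in cpm (y axis, linear from 0, 1 scale per panel) at the 7 ages (x axis); points are libraries, and the bar and whiskers are the mean and SD of an age (n = 3 to 6). Irx2 and Irx3 are highest at E14, Irx5 at P1, and the values of Irx6 stay between 10.3 and 30.4 cpm over all 27 libraries.

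Irx2, a factor known from ganglion cells, had the highest level of the family at E14. Its 3 E14 libraries held 50.1, 54.9 and 51.6 cpm, the 3 E17 libraries 30.9, 28.6 and 25.5 cpm, and the 4 P1 libraries 8.59, 9.08, 8.48 and 9.46 cpm. At P6 the values were 4.80, 3.79 and 1.65 cpm, at P15 they were 3.08, 2.90, 2.68 and 2.61 cpm, and at P28 they were 3.86, 3.09, 2.16 and 2.26 cpm. The 6 P60 libraries ranged from 1.10 to 3.30 cpm with a median of 1.98. From E14 to P6 each age lay wholly below the age before it, and from P6 onward the ages overlapped. The E14 mean was 52.2 ± 2.43 cpm (SD, n = 3) and the P60 mean 2.10 ± 0.750 cpm (SD, n = 6), which is 4.03% of the E14 level. Irx2 fell on the log2(cpm + 1) scale by 3.48 (SE 0.14) from the embryonic to the mature ages, with an adjusted p of 1.45e-20 in limma. Along the way it fell by 0.86 from E14 to E17 (adjusted p = 0.0115), by 1.56 from E17 to P1 (adjusted p = 4.70e-06) and by 1.24 from P1 to P6 (adjusted p = 2.40e-05). The step from E14 to E17 was the least certain, since its adjusted p in limma rose to 0.0547 without E14 replicate 2, to 0.0655 without E17 replicate 3 and to 0.0646 with a pseudocount of 0.1.

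Irx3, which sits at the place in its cluster that Irx1 holds in the other, also fell from E14 onward. Its E14 libraries held 33.5, 34.4 and 33.5 cpm, those of E17 held 12.7, 15.6 and 13.8 cpm, and those of P1 held 8.95, 7.56, 8.03 and 7.93 cpm. At P6 the values were 3.96, 4.76 and 3.45 cpm, at P15 they were 3.75, 2.63, 4.75 and 3.57 cpm, and at P28 they were 2.40, 2.95, 1.89 and 2.89 cpm. The P60 libraries ranged from 0.845 to 4.12 cpm with a median of 2.88. The ages were again ordered without overlap from E14 to P6 and overlapped afterwards. Irx3 fell by 2.58 (SE 0.15, log2 scale) from the embryonic to the mature ages (adjusted p = 1.51e-16, limma). Its steepest step was the first, a fall by 1.22 (SE 0.24) from E14 to E17 with an adjusted p of 0.000571, and it fell by 0.86 from P1 to P6 with an adjusted p of 0.00303. From E17 to P1 it fell by 0.72 (SE 0.23, adjusted p = 0.0425), a call that was lost without any of the 7 libraries of these ages (adjusted p 0.0554 to 0.180), with no filter on low values (0.0513) and with a pseudocount of 0.1 (0.145).

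Irx4, linked to the guidance of ganglion cell axons, was first called lower at the step from E17 to P1. The E14 libraries held 22.5, 20.9 and 21.3 cpm, those of E17 held 22.8, 25.9 and 26.4 cpm, and those of P1 held 12.8, 9.45, 10.9 and 10.9 cpm. At P6 they held 6.22, 4.002 and 4.69 cpm, at P15 they held 4.95, 3.82, 5.84 and 3.71 cpm, and at P28 they held 2.13, 5.76, 3.92 and 3.27 cpm. The P60 libraries lay close together, from 2.75 to 3.39 cpm with a median of 3.03. All E17 libraries lay above the E14 libraries, but the difference of 0.20 on the log2 scale did not pass the test (adjusted p = 0.681, limma). P1 lay wholly below both embryonic ages and P6 wholly below P1. Irx4 fell by 1.12 (SE 0.19) from E17 to P1 (adjusted p = 0.000104) and by 1.02 from P1 to P6 (adjusted p = 6.49e-05). From the embryonic to the mature ages it fell by 2.37 (SE 0.12, adjusted p = 1.45e-17), and the P60 mean of 3.06 ± 0.273 cpm (SD, n = 6) was 12.2% of the E17 mean.

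Irx1 was the least abundant member at every age. Its libraries held 3.10, 2.11 and 2.74 cpm at E14, 3.17, 3.62 and 4.04 cpm at E17, and 1.10, 1.51, 1.02 and 0.591 cpm at P1. These were 20 to 41 reads per embryonic library, against 0 to 10 reads per mature library. At P6 the values were 0.989, 0.757 and 0.276 cpm, at P15 they were 1.07, 1.32, 0.243 and 0.275 cpm, and at P28 they were 0.799, 0.281, 0 and 0.629 cpm. At P60 the values ran from 0 to 0.857 cpm with a median of 0.520. E17 lay wholly above E14 and E14 wholly above P1, whereas P1 and the later ages overlapped. Irx1 fell by 1.47 (SE 0.16) from the embryonic to the mature ages (adjusted p = 1.30e-09, limma) on the log2(cpm + 1) scale, which understates the change of so low a gene. It passed the filter on low values in all 6 embryonic libraries, 3 of 4 P1 and 2 of 4 P15 libraries, so that its level was above the filter mainly where it was high. The fall by 1.18 from E17 to P1 (adjusted p = 0.00169) was not called with a pseudocount of 0.1 (adjusted p = 0.181).

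Irx5, required for a subset of OFF cone bipolar cells, was the member that rose at birth. Its libraries held 21.0, 22.5 and 24.0 cpm at E14 and 19.2, 24.4 and 26.3 cpm at E17, and these ages overlapped. At P1 they held 52.0, 42.6, 36.1 and 49.3 cpm, all above every embryonic library. The P6 libraries held 8.34, 10.4 and 8.27 cpm, those of P15 held 4.42, 5.27, 3.53 and 3.99 cpm, and those of P28 held 4.13, 3.23, 3.11 and 4.15 cpm. At P60 the values ran from 0.961 to 5.27 cpm with a median of 2.79. The P1 level was therefore a peak: P6 lay wholly below P1 and below both embryonic ages, and P15 wholly below P6. Irx5 rose 1.93-fold from E17 to P1, by 0.92 on the log2 scale (SE 0.24, adjusted p = 0.0102, limma), and was the only member to rise at this step, which 5.77% of all features tested did, while 15.1% had all P1 libraries above all E17 libraries. This call was lost without E17 replicate 1 (adjusted p = 0.0855) and with a pseudocount of 0.1 (adjusted p = 0.0582). It then fell 5.002-fold to P6, by 2.20 (SE 0.24, adjusted p = 4.67e-09), and by a further 0.92 to P15 (adjusted p = 0.00301). Relative to the P1 mean, the E14 mean was 49.98%, the P6 mean 19.99% and the P60 mean 6.32%.

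Irx6, known from another subset of OFF cone bipolar cells, did not pass the test at any step. Its libraries held 14.5, 14.0 and 13.8 cpm at E14, 17.7, 19.9 and 20.1 cpm at E17, and 22.3, 12.4, 16.2 and 19.3 cpm at P1. At P6 they held 18.8, 20.3 and 20.5 cpm, at P15 they held 10.3, 13.3, 16.5 and 21.6 cpm, and at P28 they held 14.8, 14.3, 13.3 and 12.2 cpm. The 6 P60 libraries held 12.98, 13.2, 25.7, 18.2, 30.4 and 17.4 cpm. Ranked by their means, all neighbouring ages overlapped, and the highest mean (19.9 ± 0.957 cpm at P6; SD, n = 3) was followed closely by that of P60 (19.7 ± 6.99 cpm; SD, n = 6). The P60 mean includes replicates 1 and 2, the lowest of the age, and its place below P6 rests on them. The difference between mature and embryonic ages was -0.07 on the log2 scale (SE 0.14, adjusted p = 0.65), with an interval of 2 SE from -0.36 to 0.21. In the F test of limma over all 7 ages, Irx1 to Irx5 passed and Irx6 did not (adjusted p = 0.113), where 83.0% of all features tested passed. All 6 members passed the F test without P15 replicate 4, without P60 replicate 1, without P60 replicate 2 and without both of these P60 libraries. The difference from E14 to E17 was 0.42 (SE 0.24, adjusted p = 0.336), although the E17 libraries all lay above the E14 libraries, and with only the libraries of these 2 ages in the fit it passed (adjusted p = 0.00323). From E17 to P1 the difference was -0.16 (SE 0.22, adjusted p = 0.798), with an interval from -0.60 to 0.29.

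The spread of Irx6 within an age was widest at P60. From P28 to P60 the difference was 0.43 (SE 0.19, adjusted p = 0.115, limma), and it passed without P60 replicate 1 (0.53, adjusted p = 0.0322) or replicate 2 (0.53, adjusted p = 0.0346). These are the libraries that stood apart over all features, and they had the lowest Irx6 values of the age. Without both, Irx6 rose by 0.68 from P28 to P60 (adjusted p = 0.00202, limma). They also had the lowest summed bipolar markers, 1979 and 1890 cpm against 2062 to 2301 cpm in the other P60 libraries, and the lowest summed photoreceptor markers, 22264 and 22087 cpm against 23242 to 26407 cpm. The part of these differences in the spread of Irx6 was not tested.

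**Figure D2:**
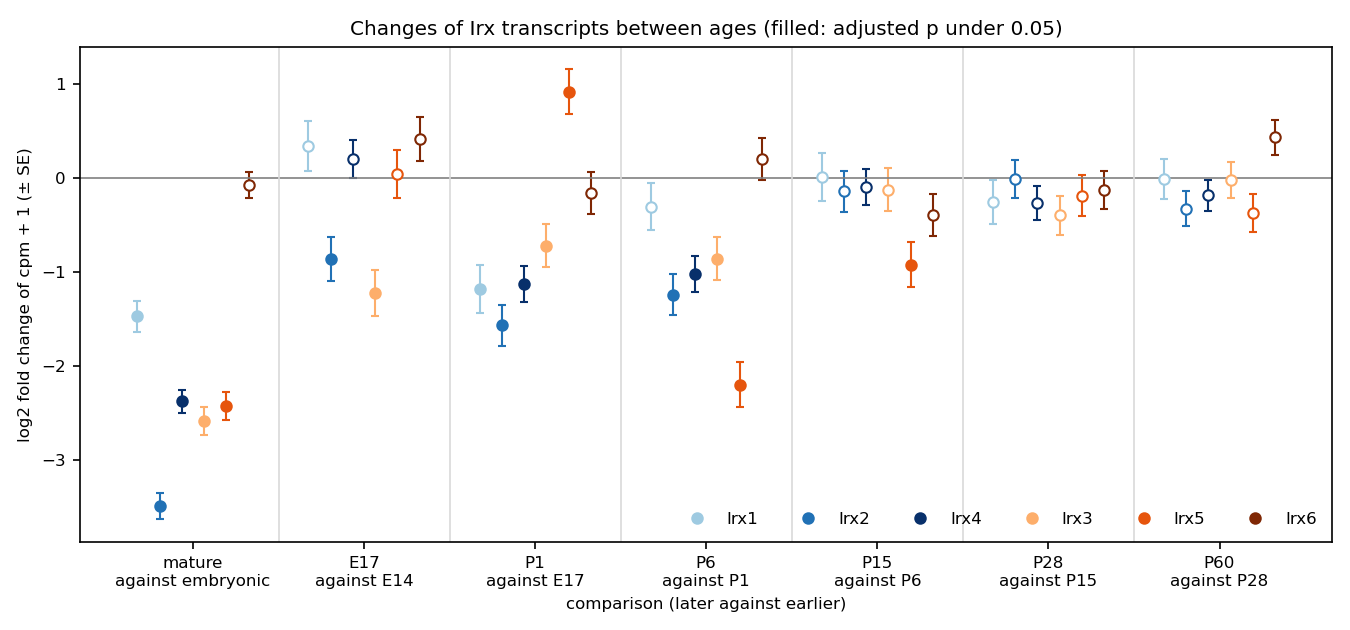
Log2 difference on the log2(cpm + 1) scale (y axis) of each Irx gene between neighbouring ages and between the mature and embryonic ages (x axis); points are estimates, bars are the SE, and filled points passed an adjusted p of 0.05 in limma. Irx5 is above 0 from E17 to P1, where Irx1, Irx2, Irx3 and Irx4 are below 0. From P15 to P28 the members run from -0.40 (Irx3) to -0.0099 (Irx2), and no point is filled.

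By step, the family changed mostly before P6. From E14 to E17, Irx2 and Irx3 fell, 2 of the 6 members, where 3.02% of all features tested fell and 10.6% changed in either direction. At this step 16.2% of features had all E17 libraries below all E14 libraries, as Irx2 and Irx3 did, and 20.7% had them above, as Irx1, Irx4 and Irx6 did. Irx1, Irx2, Irx3 and Irx4 then fell and Irx5 rose to P1, where 3.43% of features fell, 5.77% rose and 9.21% changed in either direction, and where 10.8% had all P1 libraries below all E17 libraries. Between P1 and P6 Irx2, Irx3, Irx4 and Irx5 fell, where 20.4% of features fell and 25.4% had all libraries of the later age below the earlier. The last member to fall was Irx5 between P6 and P15, where 19.0% of features fell and 24.3% had the ages apart in this direction. With a 2-fold change asked for as well, 1 member was called from E14 to E17, 3 to P1 and none from P6 to P15, beside 3.60%, 1.84% and 8.05% of all features. No member passed the test in limma from P15 to P28, where 2.72% of features did, or from P28 to P60, where 12.9% did, and edgeR called no member at either step. At an unadjusted p under 0.05, 0 members passed from P15 to P28 and 1, Irx6, from P28 to P60. The differences between members in their changes were not tested.

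Summed over the cluster, the reads of the 2 clusters were close at both embryonic ages and parted after E17. Irx1, Irx2 and Irx4 together gave 76.4 ± 1.28 cpm at E14 and 56.9 ± 1.08 cpm at E17, and Irx3, Irx5 and Irx6 together gave 70.4 ± 1.20 and 56.6 ± 6.06 cpm (SD, n = 3 per age). At P1 the Irx1-2-4 sum was 20.9 ± 1.07 cpm and the Irx3-5-6 sum 70.7 ± 11.1 cpm (SD, n = 4). The first had dropped while the second was back at its E14 level. At P60 the sums were 5.58 ± 0.780 and 25.1 ± 8.08 cpm (SD, n = 6). Over the 14 mature libraries the Irx1-2-4 sum ran from 4.42 to 9.13 cpm and the Irx3-5-6 sum from 15.8 to 35.4 cpm, without overlap. Levels in these sums are per gene and not per length, and sums are led by the members with most reads.

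The share of all Irx reads that came from Irx3, Irx5 and Irx6 does not depend on the depth of a library or on the scaling between libraries. It was 48.0% ± 0.496 at E14 and 49.7% ± 2.78 at E17 (SD, n = 3 per age), and 76.9% ± 2.01 at P1 (SD, n = 4). It was 78.6% ± 5.70 at P6, 73.7% ± 6.00 at P15, 73.9% ± 3.19 at P28 and 81.0% ± 4.38 at P60. Each of the 21 postnatal libraries lay above each of the 6 embryonic ones, the lowest postnatal share being 67.0% and the highest embryonic 51.8%. Per kilobase of exon, the mean share was 48.3% in the embryonic and 74.4% in the mature retina. The number of Irx reads behind a share fell from 1395 to 1447 per library at E14 to 150 to 318 at P60, so that counting error is larger at the later ages.

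Different members made up this share at birth and in the mature retina. At E14 Irx2 gave 35.5% ± 1.18 of all Irx reads (SD, n = 3), the most of any member. At P1 Irx5 gave 49.0% ± 3.03 (SD, n = 4), and Irx6 19.0%. Irx6 then gave 47.5% at P6, 48.1% at P15, 50.9% at P28 and 63.0% ± 5.47 at P60 (SD, n = 6), where its 6 libraries ran from 55.6% to 72.2%. With Irx6 left out of the sum, the share of Irx3 and Irx5 was 41.0% in the embryonic and 48.4% in the mature retina.

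**Figure D3:**
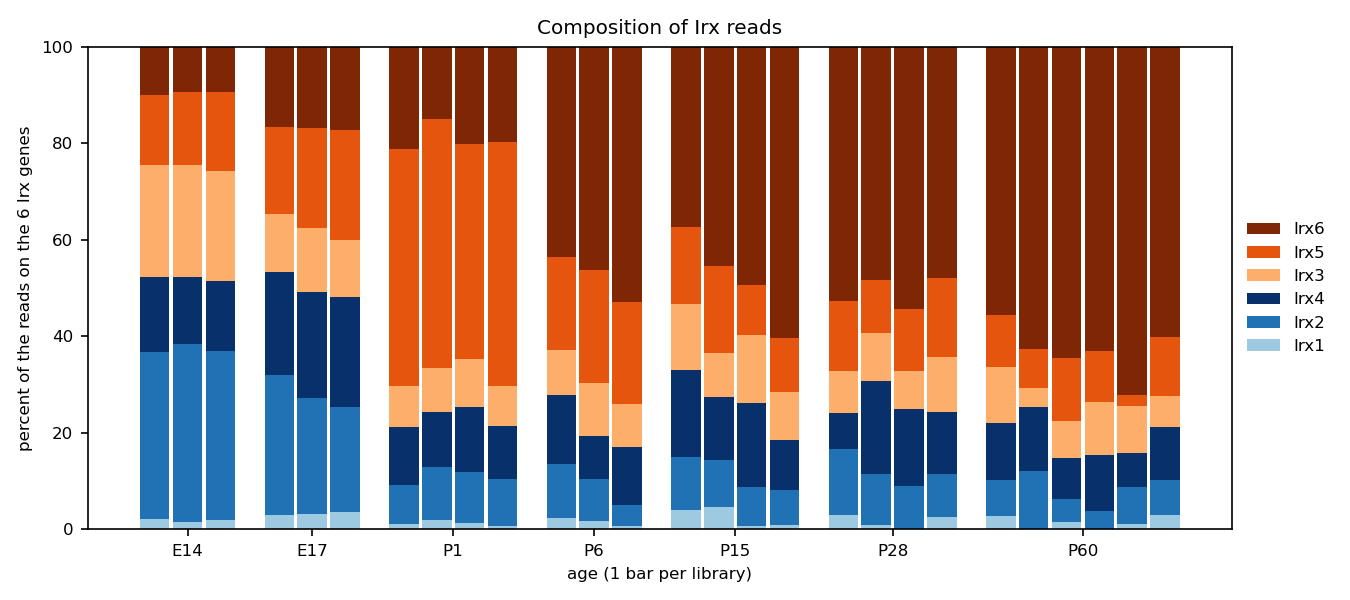
Share of all Irx reads (y axis, percent) that each member gave, as 1 stacked bar per library grouped by age (x axis), with the 3 members of the Irx3-5-6 cluster above those of Irx1-2-4. The Irx3-5-6 members give a mean of 48.0% at E14 and 81.0% at P60, led by Irx5 at P1 and by Irx6 from P6 onward.

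Levels were compared between members per kilobase of merged exon, since a longer transcript gives more reads at the same abundance (merged exon lengths ran from 2.61 kb for Irx4 to 3.37 kb for Irx6). At E14 the order was Irx2 (15.9 ± 0.740 cpm per kb), Irx3 (12.2 ± 0.188), Irx4 (8.27 ± 0.325), Irx5 (7.19 ± 0.478), Irx6 (4.19 ± 0.108) and Irx1 (1.01 ± 0.191; SD, n = 3 for each). At E17 Irx4 led with 9.60 ± 0.745 cpm per kb (SD, n = 3), Irx2 followed with 8.63 ± 0.827, and Irx1 was last with 1.38 ± 0.166. The lead of Irx4 over Irx2 at E17 was of the size of their SDs. At P1 Irx5 led with 14.4 ± 2.29 cpm per kb, ahead of Irx6 with 5.20 ± 1.27 (SD, n = 4). From P6 Irx6 led, with 5.90 ± 0.284 cpm per kb at P6 (SD, n = 3) against 2.88 ± 0.384 for Irx5. At P60 Irx6 stood at 5.83 ± 2.07 cpm per kb (SD, n = 6), where Irx4, the next member, stood at 1.17 ± 0.105 and Irx1 at 0.162 ± 0.137. In the P60 libraries Irx6 ran from 3.85 to 9.01 cpm per kb, and no library of any other member passed 1.69. Irx3, Irx4 and Irx5 overlapped there.

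Across the 27 libraries Irx1 to Irx5 were correlated with each other within and across the clusters, least so where Irx5, with its peak at P1, was compared with Irx1. Pearson's r on the log2 scale was 0.945 for Irx2 with Irx3, 0.934 for Irx2 with Irx4 and 0.914 for Irx4 with Irx3, and 0.665 for Irx1 with Irx5. With Irx6 every r lay between -0.0526 and 0.0483. These values describe libraries that share their age, and with each age mean taken off most of the likeness was gone: r was then 0.522 for Irx3 with Irx6 and between -0.294 and 0.372 for all other pairs.

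Of 19020 named features compared, the course of Irx2 over the 27 libraries was most like that of Atoh7, the factor that makes progenitors competent to become ganglion cells (r = 0.981), which went from 197 cpm at E14 to 0.437 cpm at P60. The neuronal intermediate filament gene Ina (r = 0.980) and the nuclear receptor gene Nr0b1 (r = 0.976) came next. Irx4 was most like Rbpms, an RNA-binding protein used as a ganglion cell marker (r = 0.975), followed by Nell2 (0.972) and the glucose transporter gene Slc2a1 (0.971). For Irx3 the nearest were the cadherin gene Cdh4 (0.977), the secreted Wnt antagonist gene Sfrp2 (0.972) and Ina (0.968). Irx5 was most like Gli3, a transcription factor of the hedgehog pathway (0.976), which averaged 77.3 cpm at E14, 128 at E17, 157 at P1 and 24.5 at P6, then Tbx3 (0.971) and Tubb6 (0.970). Such likeness was common, as 553 features had an r over 0.9 with Irx2, 1014 with Irx4, 442 with Irx3 and 1160 with Irx5. For Irx1 and Irx6 no feature reached 0.9, and the nearest were Tcerg1l (0.889) and Exoc7 (0.799).

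Genes annotated within 500 kb of each cluster were read beside the members, where a feature carried their name. Around Irx1-2-4, 27 genes were annotated, 9 had a feature and 7 were tested. Around Irx3-5-6 these numbers were 43, 8 and 7, so most annotated neighbours are not covered. Of the 7 tested around Irx1-2-4, 5 fell from the embryonic to the mature retina and 1 rose, with a median log2 difference of -1.04. Among these 5 is Gm20554, which passed the filter on low values through the embryonic libraries alone, so its fall gives no independent support. Slc12a7, an ion cotransporter gene, fell by 2.04, and Tert, the catalytic subunit of telomerase, fell by 1.96. Of the 7 tested around Irx3-5-6, 4 rose and 1 fell, with a median of 0.24. Lpcat2, a lysophospholipid acyltransferase gene, rose by 2.65, and the matrix metalloproteinase gene Mmp2 rose by 1.89. The median over all features was -0.06, 40.4% of features were lower and 35.0% were higher. Fto, 130.09 kb from Irx3 and known for an interval that regulates Irx3 in other tissues, averaged 151 cpm at E14 and 174 cpm at P60, and its r with Irx3 was -0.564.

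Of the non-coding neighbours, Gm20554 and Irx3os were correlated with the Irx gene beside them, and Gm40999 and 4831440D22Rik were not. Such correlation was not limited to non-coding genes. Among protein-coding neighbours, Mrpl36, Tert and Slc12a7 had an r of 0.774 to 0.870 with Irx4, their nearest member, and Lpcat1 had -0.864. The other protein-coding neighbours had an r from -0.564 (Fto) to 0.446 (Clptm1l) with their nearest member. Gm20554, a long non-coding RNA whose start lies 256 bases from that of Irx2 on the opposite strand, had 26, 26 and 24 reads at E14, 21, 20 and 14 at E17, 2 to 5 at P1 and 0 to 7 in the mature libraries. Its r with Irx2 over the 27 libraries was 0.917, where 553 of the 19020 named features compared had an r over 0.9. Gm20554 fell by 1.45 (SE 0.11) from the embryonic to the mature ages (adjusted p = 4.47e-13, limma). It passed the filter on low values through the 6 embryonic libraries alone, where it is high, so this fall gives the values above and no independent support. Irx3os, which overlaps Irx3 on the other strand, had 14, 12 and 8 reads at E14, 6, 5 and 3 at E17 and 0 to 3 later, too few to pass the filter. Its r with Irx3 was 0.817, and reads of the 2 genes cannot be told apart where they overlap. Gm40999, 1.37 kb from Irx1, had 0 to 4 reads per library and an r of 0.242 with Irx1. The antisense gene 4831440D22Rik, 323.93 kb from Irx3, had an r of -0.104 with Irx3 and did not pass the test.

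Because Irx2 and Gm20554 start so close together, the 250 bases before the Irx2 start are shown (RefSeq, GRCm38.p6, chr13:72628570-72628819, plus strand). Capitals mark each CG dinucleotide.
Irx2 promoter: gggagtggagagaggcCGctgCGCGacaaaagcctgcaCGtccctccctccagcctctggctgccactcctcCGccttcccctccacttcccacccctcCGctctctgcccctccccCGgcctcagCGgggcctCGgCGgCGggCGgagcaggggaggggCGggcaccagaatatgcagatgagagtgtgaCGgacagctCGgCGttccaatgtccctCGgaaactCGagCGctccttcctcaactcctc
The stretch holds 19 CG pairs, against a median of 6 over the 32851 promoters of the same length in the RefSeq table, and 19.7% of these promoters hold 19 or more. Its GC content is 68.4%, which 11.6% of promoters reach, with a median of 52.4%. The letters CCAAT, searched on both strands, occur in it as in 33.8% of promoters. The letters TATAAA, found in 12.4% of promoters, do not occur in this window. RefSeq promoters matched Irx2, Irx3 and Irx4, 3 of the 6 members.

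Other TALE genes, among them the Meis and Pbx genes whose proteins pair with other homeodomain factors, were read beside the family. Of 12 tested, 10 were called lower and 2 higher from the embryonic to the mature retina, with a median log2 difference of -0.82, beside 40.4% and 35.0% of all features and a median of -0.06. Tgif1, a transcriptional repressor, fell by 3.51 from 24.0 cpm at E14 to 1.54 cpm at P60, and Meis1 fell by 1.25. Mkx rose by 2.10. Meis2 was called higher by 0.21 on the log2 scale, but its mature age means of 159, 168 and 166 cpm lay between those of E14 (79.2 cpm) and E17 (253 cpm), so this difference has no single direction against the embryonic ages. Meis2 was highest at P1 with 414 cpm, after a rise by 0.71 from E17 (adjusted p = 2.39e-06, limma) at the step where Irx5 also rose, and then fell by 0.64 to P6 and by 0.73 to P15.

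Slit ligands and Robo receptors guide axons, and in the chick retina Irx4 was linked to the level of the ligand gene Slit1. Of the 6 Slit and Robo genes, 5 were called lower and 1, Slit2, higher from the embryonic to the mature ages, with a median of -0.89, beside 40.4% of all features lower, 35.0% higher and a median of -0.06. Robo3, called lower, averaged 2.52 cpm at E14, 12.8 at E17, and 2.43, 2.15 and 4.42 at P15, P28 and P60. Its mature means thus lay below E17 but on both sides of E14. Slit1 fell by 0.94 (SE 0.11, adjusted p = 4.70e-09, limma). Its age means were 41.9 cpm at E14, 32.2 at E17, 23.4 at P1 and 15.4 at P6. They did not fall steadily afterwards, with 20.3 cpm at P15, 15.2 at P28 and 22.1 at P60 (SD 6.95 at P60). From E17 to P1, where Irx4 fell by 1.12, Slit1 had a difference of -0.45 (adjusted p = 0.11, limma). The receptor genes Robo1 and Robo3 rose at this step, by 0.54 (adjusted p = 0.000364, limma) and by 1.21 (adjusted p = 1.72e-06, limma).

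Marker genes of the cells in which Irx genes are known were summed beside them. Of 16 ganglion cell markers, 11 fell and 4 rose from the embryonic to the mature ages, with a median of -1.46, beside 40.4% and 35.0% of all features, and 12 of 16 fell from E17 to P1, where 3.43% of features did. Their summed level was 2522 cpm at E14, 1769 at E17, 915 at P1, 1112 at P6, 1361 at P15, 1093 at P28 and 970.2 at P60. This is 36.3% of the E14 level at P1, 54.0% at P15 and 38.5% at P60, where Irx2 stood at 4.03% of its E14 level. The markers in this sum differed widely. From E14 to P60, Pou4f2 went from 109 to 4.72 cpm and Ebf3 from 536 to 46.9 cpm. Nefl went from 362 to 299 cpm and Nefh from 1.37 to 59.8 cpm, so the sum does not stand for each marker. Nefl was called higher in the mature ages by 0.14 on the log2 scale. Its means of 389, 328 and 299 cpm at P15, P28 and P60 lay on both sides of the E14 mean. Of 19 bipolar cell markers, 16 rose and 3 fell from the embryonic to the mature ages, with a median of 2.83, beside 40.4% lower and 35.0% higher of all features, and 17 rose from P1 to P6, where 18.0% of all features rose. Their summed level was 619 cpm at P1, 1711 at P6 and 2318 at P15. Irx5 was highest before this rise and fell 5.002-fold across it, and Irx6 did not pass the test at that step. Of 5 photoreceptor markers all 5 rose. Isl1 is in both the ganglion and the bipolar cell list. What part the changing mixture of cells has in the Irx levels was not tested.

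**Figure D4:**
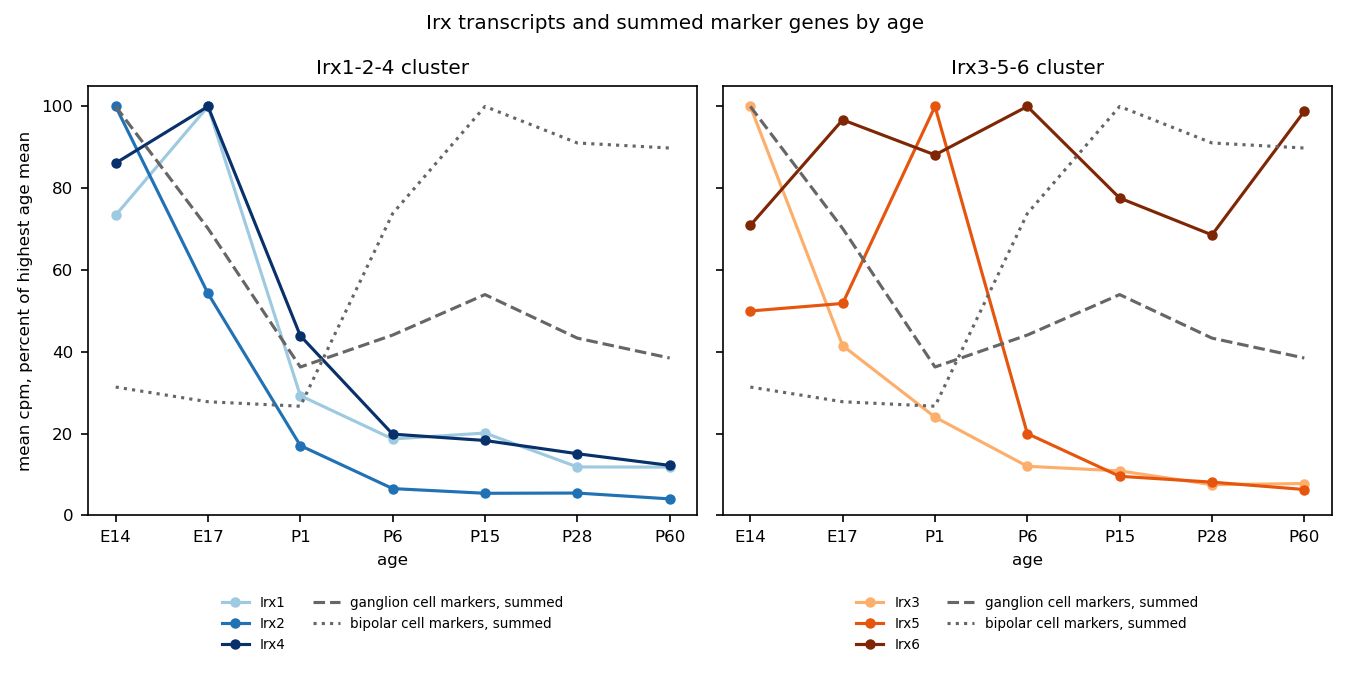
Mean level of each Irx gene and of the summed ganglion cell and bipolar cell markers at each age (x axis), in percent of that series' highest age mean (y axis, linear from 0), with the Irx1-2-4 cluster in the left and the Irx3-5-6 cluster in the right panel. At P60, with all libraries of the age, Irx2 stands at 4.03%, Irx5 at 6.32%, the ganglion cell markers at 38.5%, the bipolar cell markers at 89.8% and Irx6 at 98.8%.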

How the data were processed

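Total RNA from 27 retina libraries was made into libraries with a SMARTer total RNA kit, sequenced as single-end reads and aligned by the authors with STAR to GRCm38 (mm10), and the deposited CPM values were used as they stand. The annotation and strand setting of the counting are not given in the sources used here. Every CPM value was a whole multiple of 1 read (100% within a tolerance of 0.02), features with under 5 reads over all libraries were not in the table, and 7076646 to 11330762 reads per library were recovered, with limits from counting error only. Features at 1 CPM or more in 3 or more libraries were kept (31760 of 38168) and fitted as log2(CPM + 1) with limma 3.58.1 in R 4.3.3 (trend, age as the only factor, all 27 libraries). A feature was called at a Benjamini-Hochberg adjusted p under 0.05. Intervals are 2 SE. Fold values are ratios of mean CPM. Replicates are separate samples per the labels, and p-values measure the spread between them, which for pools is partly technical. No 2 libraries of an age were alike within counting error (lowest chi-square per degree of freedom 1.69). Alternatives were edgeR 4.0.16 (quasi-likelihood, on recovered reads), median-of-ratios scaling, other filters and pseudocounts, a replicate block, only the compared ages, and leaving out each library, or P60 replicates 1 and 2 together. Scripts were tested on simulated data. Coordinates and exon lengths are from GENCODE M21 and promoters from RefSeq, and Python 3.11.15 was used with numpy 2.4.6, pandas 2.3.3, scipy 1.17.1 and matplotlib 3.10.9. The members, gene lists, rules for named genes and tests were chosen with earlier results of these data known. Genes most alike to a member are the 3 with the highest Pearson's r of log2(CPM + 1) over the 27 libraries.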

Additional observations from a re-analysis of the deposited data

Results flagged for a closer look

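In P28 replicate 2, Irx3, Irx5 and Irx6 gave 69.2% of all Irx reads, far from the other 3 P28 libraries at 75.8%, 75% and 75.7%. The gap to the nearest library was 0.875 of the whole range of the age, above Dixon's limit of 0.829 for 4 samples. In all, 28 groups of samples were looked at in this way, of which chance alone sets apart about 1 in 20.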

How the results depend on the processing

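Of 42 results for single Irx genes, 17 passed the test, and 13 of these did so under every alternative run; none changed direction. Of 714 alternative values, 656 kept their direction and their side of the threshold. Filtering at a mean CPM of 10 left 3 members to test and lowered the number called from 5 to 2 between mature and embryonic ages, from 2 to 1 for E17 against E14, from 5 to 2 for P1 against E17 (1 higher and 1 lower), from 4 to 2 for P6 against P1 and from 5 to 2 in the F test, since fewer members were tested. Asking also for a 2-fold change left 1 member for E17 against E14, 3 for P1 against E17 and 0 for P15 against P6. A pseudocount of 0.1 left 1 from E14 to E17 and 2 from E17 to P1; the cause was not tested. Leaving out single libraries gave 1 to 2 members called from E14 to E17 (1 without E14 replicate 2 or E17 replicate 3), 3 to 4 from E17 to P1, 0 to 1 from P28 to P60, 5 to 6 in the F test, and 5, 4 and 1 throughout for mature against embryonic, P1 to P6 and P6 to P15. The share of Irx3, Irx5 and Irx6 was 70.4%, 37.5%, 60.02%, 37.7% and 41.0% in the embryonic retina without Irx2, Irx3, Irx4, Irx5 and Irx6 in turn, and 84.1%, 88.0% and 48.4% in the mature retina without Irx2, Irx4 and Irx6. Leaving out libraries moved it from 48.3% to 49.3% and from 76.3% to 77.7%.

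Leaving out P60 replicates 1 and 2 together (added after seeing the data) gave 1 member called from P28 to P60, Irx6, 6 in the F test and 5 in the mature against the embryonic ages, and a mature share of 76.98%. The differences that changed sign had not passed the test. Without these 2 libraries Irx6 in the mature against the embryonic ages was 0.0080, and Irx1 and Irx3 from P28 to P60 were 0.046 and 0.17. With median-of-ratios scaling, edgeR, and edgeR without E14 replicate 1 (added after seeing the data) in turn, Irx6 in the mature against the embryonic ages was 0.0022, 0.066 and 0.072, Irx2 from P15 to P28 was 0.0023, 0.029 and 0.030, Irx1 from P28 to P60 was 0.0099, 0.027 and 0.026, and Irx3 from P28 to P60 was 0.031, 0.12 and 0.12. Irx5 from E14 to E17 was -0.0085 with median-of-ratios scaling and -0.022 in edgeR without E14 replicate 1, and Irx1 from P6 to P15 was -0.053 with a pseudocount of 0.1. Leaving out single libraries, Irx5 from E14 to E17 ran from -0.049 to 0.17, Irx1, Irx2 and Irx4 from P6 to P15 from -0.17 to 0.15, from -0.47 to 0.10 and from -0.22 to 0.048, Irx2 and Irx6 from P15 to P28 from -0.13 to 0.076 and from -0.29 to 0.045, and Irx1, Irx3 and Irx4 from P28 to P60 from -0.17 to 0.12, from -0.14 to 0.16 and from -0.37 to 0.0042.

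The labels number replicates alike at each age, but the ages hold different animals and same-numbered libraries shared only a number (correlation of their deviations -0.129 to 0.167, median -0.00178, over 69 pairs). With the replicate block the counts were 5, 2, 5, 4, 1, 0 and 0 over the 7 comparisons and 5 in the F test, as without it, and edgeR gave the same 7 counts. At 0 to 10 reads per mature library, the level of Irx1 there is set by few reads.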
